A study of Mus musculus with 4 samples.

Results

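The MHC class II genes H2-Ab1, H2-Aa, H2-Eb1, Cd74 and Ciita were read out in the skeletal cells of mouse long bones by single-cell RNA sequencing. Each of the 5 genes was found by its symbol as 1 row of the 53703 features in every library. The genes were taken up with measured values of these libraries known, so their own levels are given below as descriptions, without a test, and tests are given for antigen presentation genes outside the group. The libraries hold cells of the metaphysis of femur and tibia from C57BL/6 mice of 12 weeks, depleted of lineage-positive, CD45+ and CD117+ cells. There were 2 libraries of Lats2iECKO mice, which carry floxed Lats2 and the tamoxifen-inducible Cdh5-CreERT2 transgene that recombines in endothelial cells, and 2 libraries of Cre-negative littermate controls, which the labels call untreated and which received tamoxifen as well. The chondrocytes and stromal cells described here are therefore not the cells in which the driver is active. Nothing states how many animals each library holds, so p-values measure the spread between these libraries.

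MHC class II molecules are heterodimers of an alpha and a beta chain that carry peptides from endosomes to the surface of antigen-presenting cells, where CD4 T cells read them. H2-Ab1 encodes the beta chain and H2-Aa the alpha chain of the I-A molecule, and H2-Eb1 the beta chain of I-E. Cd74, the invariant chain, occupies the peptide groove during transport, and Ciita is the coactivator that switches the genes on together in dendritic cells, macrophages and B cells and, under interferon gamma, in many other cell types. Growth plate chondrocytes mature from resting through columnar and prehypertrophic to hypertrophic cells, which make collagen X, while superficial chondrocytes cover the joint surface and make lubricin.

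On GRCm39, H2-Ab1 lies on chr17:34476663-34488393 on the plus strand, H2-Aa on chr17:34493404-34506798 on the minus strand and H2-Eb1 on chr17:34504236-34535648 on the plus strand, all protein-coding genes with GENCODE M39 bounds. H2-Aa and H2-Eb1 overlap by 2563 bases on opposite strands. The lncRNAs Gm64691 on the opposite strand and Gm64943 on the same strand overlap H2-Ab1 by 532 and 548 bases. The values of H2-Ab1 were exact whole numbers in all 2545 entries above 0 in the cells kept, so none was split as a fraction between genes of the annotation used for counting. The study counted with an earlier GENCODE release, and whether that release holds these lncRNAs was not checked. Reads of a lncRNA that it lacks could be counted as whole UMIs of H2-Ab1.

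The 2 members with a RefSeq promoter (GRCm38.p6) show the paired elements by which class II genes are known to be controlled, the X box, whose core holds GCAAC, and the Y box, which holds ATTGG, the reverse complement of CCAAT. Both stretches run up to the base before the transcription start, with GCAAC and then ATTGG in capitals, the H2-Aa stretch on the minus strand of chr17:34287824-34287929 and the H2-Eb1 stretch on the plus strand of chr17:34305751-34305866.
H2-Aa: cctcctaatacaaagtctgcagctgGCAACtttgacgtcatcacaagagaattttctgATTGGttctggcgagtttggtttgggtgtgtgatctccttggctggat
H2-Eb1: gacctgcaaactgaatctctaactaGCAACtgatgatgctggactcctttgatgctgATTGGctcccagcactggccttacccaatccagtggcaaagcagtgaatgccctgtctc
The motifs were separated by 28 bases in H2-Aa and by 27 bases in H2-Eb1 and did not overlap. On either strand, GCAAC was in 29.9% and ATTGG in 33.8% of all 32851 promoters, read over the 250 bases before the start. GCAAC followed by ATTGG on the gene's own strand with at most 40 bases between them was in 0.746%. The promoters of H2-Ab1, Cd74 and Ciita are not shown.

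The libraries held between 69636600 and 85899079 UMIs, and 24599 barcodes passed the filters, with a median of 7574 to 8181 UMIs per cell in each library. No barcode was shared by more than 2 libraries, and 66 were in 2. Lats2 was at 92.6 and 98.1 CPM (counts scaled to the UMI total of the class) in the endothelial cells of the Lats2iECKO libraries and at 134 and 122 CPM in those of controls, a count that covers the whole gene and so includes transcripts without the deleted part. Cells were assigned by marker scores, and 24294 of them had no UMI of Ptprc, the pan-leukocyte gene CD45. Among these were 7671 chondrocytes (4633 of mutants, 3038 of controls), 4762 reticular stromal cells, 1556 osteoblasts, 802 metaphyseal stromal cells and 2820 endothelial cells. A gate on a score is a range and not a type. Within 0.05 of a threshold of the class score or margin lay 6.8% of chondrocytes, 2.8% of reticular stromal cells and 16.0% of metaphyseal stromal cells. For the same class thresholds this held for 7.1% of hypertrophic and 22.3% of superficial chondrocytes. Cells near a threshold between zones were not counted.

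The genes named in this paragraph are in the marker lists that set the classes and zones. Their levels thus describe the gates and are no check of them. Superficial cells had a median of 17357 CPM of Prg4 (lubricin) and a median of 0 CPM of Col10a1. Hypertrophic cells had a median of 6228 CPM of Col10a1 and 451 CPM of Ptgs2, growth plate cells 28820 CPM of Col2a1 and 279 CPM of Epyc, and prehypertrophic cells 272 CPM of Ihh and 420 CPM of Panx3. The median of Cdh5, Lepr, C1qa and Cd79a, genes of endothelial, reticular, macrophage and B cells, was 0 in each of these 4 zones. Bglap, the osteoblast gene osteocalcin, had a median of 220 CPM in growth plate, 478 in prehypertrophic, 51.4 in superficial and 0 in hypertrophic cells, against 69222 CPM in osteoblasts. The hypertrophic gate held 457 and 455 cells of the mutant libraries but 11 and 12 of the controls. Its list includes Ptgs2, Pde11a and Loxl4, so the comparison was repeated below on Col10a1 alone.

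H2-Ab1 had the highest fold change of the members in chondrocytes. Over all chondrocytes it was at 130 and 118 CPM in the mutant libraries and at 11.01 and 9.56 CPM in the controls, that is 124 ± 8.08 CPM against 10.3 ± 1.03 CPM (SD, n = 2 each), from 3845, 3722, 233 and 211 UMIs. The groups did not overlap, and the log2 fold change was 3.65 (SE 0.075). Of all 18535 genes tested in chondrocytes, 75.1% had groups that did not overlap, so this alone sets no gene apart.

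**Figure D1:**
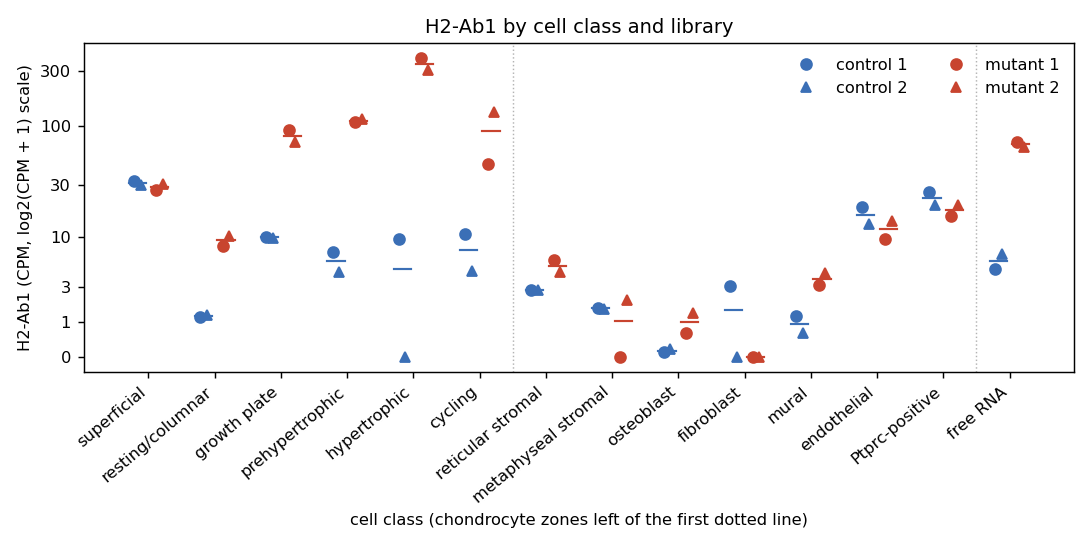
H2-Ab1 in CPM (vertical axis, log2(CPM + 1) scale) in each cell class and in free RNA (horizontal axis), with 1 symbol per library (control blue, mutant red, circle replicate 1, triangle replicate 2) and a bar at the mean of 2 libraries. The mutant symbols lie above the controls in the growth plate, prehypertrophic, hypertrophic and cycling zones, while the 4 superficial symbols lie together near 30 CPM.

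In mutants the level was higher in the more mature zones of the growth plate. In hypertrophic chondrocytes H2-Ab1 was at 386 and 308 CPM in mutants (1579 and 1225 UMIs), against 9.46 and 0 CPM in controls, where the few cells gave 1 UMI in all. The ratio of the pooled levels was 92.0, with an exact 95% counting interval of 16.5 to 3637, so its size is poorly known. Of all genes tested in this zone, 58.2% had groups that did not overlap. In prehypertrophic cells it was at 107 and 113 CPM against 7.04 and 4.42 CPM, a log2 fold change of 4.30 (SE 0.155), in a zone where 60.9% of genes had groups that did not overlap. In growth plate cells it was at 91.5 and 71.3 CPM against 9.99 and 9.79 CPM, a log2 fold change of 3.16 (SE 0.138), beside 68.1% of genes without overlap.

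The remaining zones showed 3 other patterns. Cycling chondrocytes had 46.3 and 133 CPM in mutants, the widest gap between 2 mutant libraries, against 10.5 and 4.52 CPM, with 31 to 46 cells per library. Resting and columnar cells had 8.15 and 10.2 CPM against 1.19 and 1.29 CPM, from 21 UMIs in mutants and 2 in controls, a ratio of 7.44 with an exact 95% counting interval of 1.82 to 65.5. Groups without overlap made up 50.4% of genes in cycling and 46.7% in resting and columnar cells. Superficial chondrocytes were alike in all libraries: 27.1 and 30.3 CPM in mutants and 32.6 and 29.6 CPM in controls overlapped, with a log2 fold change of -0.07 (SE 0.16), while 48.1% of genes in this zone did not overlap. The deep articular gate held 7 to 22 cells per library and gave at most 1 UMI of H2-Ab1 in each. A further 2147 chondrocytes (1475 of mutants, 672 of controls) joined no zone and are left out of the order below. In them H2-Ab1 was at 121 and 126 CPM in mutants and at 8.38 and 5.05 CPM in controls, with 2344 UMIs in mutants and 59 in controls.

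Among the zones, endothelial cells and reticular stromal cells, ordered by the mean of the mutant libraries, H2-Ab1 stood at 347 ± 55.1 CPM in hypertrophic, 110 ± 4.29 in prehypertrophic, 89.6 ± 61.2 in cycling, 81.4 ± 14.3 in growth plate, 28.7 ± 2.30 in superficial, 11.8 ± 3.34 in endothelial, 9.18 ± 1.45 in resting and columnar and 5.14 ± 1.07 CPM in reticular stromal cells (SD, n = 2 each). The cycling libraries spanned those of prehypertrophic and growth plate cells, and the endothelial libraries overlapped with resting and columnar cells. In controls the superficial zone came first at 31.1 ± 2.14 CPM, followed by endothelial cells at 15.9 ± 4.01 CPM and growth plate cells at 9.89 ± 0.14 CPM. The hypertrophic zone, first of these in mutants, had 4.73 ± 6.69 CPM in controls, from 1 UMI. Its 2 control libraries, at 9.46 and 0 CPM, lay on either side of those of the prehypertrophic zone at 5.73 ± 1.85 CPM.

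Single cells showed the same order. A UMI of H2-Ab1 was in 63.5% and 59.8% of hypertrophic cells of mutants at a median depth of 7817 and 7657 UMIs, and in 8.24% and 8.34% of all control chondrocytes at 13546 and 13797 UMIs. With each cell thinned to 4000 UMIs, which left out 78 and 73 shallower cells of the mutants, 55.5% and 50.4% of mutant hypertrophic cells still had one, against 25.5% and 23.6% of prehypertrophic and 18.4% and 16.4% of growth plate cells of mutants. After thinning, prehypertrophic cells of controls were at 2.15% and 1.53%, and superficial cells of the 4 libraries lay between 5.80% and 7.83%. In osteoblasts, which are not known for class II genes, the thinned shares lay between 0.04% and 1.48%, at median depths of 10957 to 18225 UMIs.

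The UMIs came from many cells. Of the mutant hypertrophic cells, 110 and 83 had at least 5 UMIs of H2-Ab1, and the highest cell had 72. Among all control chondrocytes, 10 and 4 cells had at least 5, with a highest value of 12.

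Because the hypertrophic gates of the genotypes differed so much in size, chondrocytes were also set side by side in bins of Col10a1, the collagen X gene, a comparison chosen after seeing the data. Among cells with over 10000 CPM of Col10a1, the summed Col10a1 was 33568 and 34811 CPM in mutants and 33604 and 32894 CPM in controls, and the numbers of cells were 372, 356, 107 and 98. In these cells H2-Ab1 was at 303 and 273 CPM in mutants and at 9.70 and 1.16 CPM in controls, a ratio of the means of 53.1. The controls rest on 18 and 2 UMIs, and the ratio was 29.7 against control 1 alone and 248 against control 2 alone. The mutants thus exceeded the controls at matched collagen X as well. The hypertrophic gate held 11 and 12 control cells, so most control cells of this bin lay outside that zone, and zones were not matched.

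The ratio was lower in the bins with less Col10a1. Between 1000 and 10000 CPM of Col10a1, H2-Ab1 was at 254 and 240 CPM against 11.8 and 14.0 CPM, a ratio of 19.2. Between 100 and 1000 CPM it was at 115 and 90.2 CPM against 17.3 and 14.5 CPM, a ratio of 6.46, and below 100 CPM of Col10a1 at 57.2 and 61.1 CPM against 10.5 and 9.61 CPM, a ratio of 5.88. That lowest bin was not matched, as its summed Col10a1 was 28 CPM in both mutants and 13 CPM in both controls. The mean of the controls was 10.1 ± 0.64, 15.9 ± 2.0, 12.9 ± 1.58 and 5.43 ± 6.04 CPM from the lowest bin to the highest (SD, n = 2), so both controls were higher in the second bin than in the first.

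**Figure D2:**
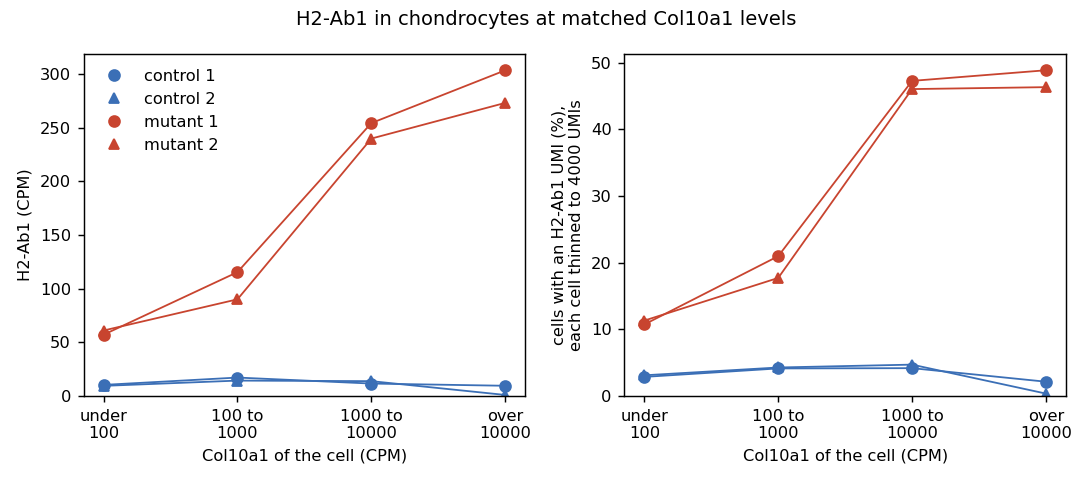
H2-Ab1 in chondrocytes grouped by the Col10a1 level of the cell (horizontal axis, CPM), as CPM (left) and as the percentage of cells with an H2-Ab1 UMI after thinning each cell to 4000 UMIs (right), 1 line per library (control blue, mutant red). The mutant lines climb from 57.2 and 61.1 CPM in the lowest bin to 303 and 273 CPM in the highest, and the control lines stay below 18 CPM.

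A hypertrophic score without Ptgs2, Pde11a and Loxl4, also chosen after seeing the data, held 485 and 502 mutant and 37 and 34 control cells. H2-Ab1 was at 371 and 291 CPM in the mutants and had 0 UMIs in the 868880 UMIs of the controls. With the controls set at a floor of 3 counts, the mutants were 95.9-fold higher. That value covers counting error in these cells only, and the ratio of 29.7 against control 1 in the highest Col10a1 bin lay below it.

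The partner genes did not follow H2-Ab1. H2-Aa, which encodes the alpha chain that pairs with the product of H2-Ab1, was at 0.74 and 0.67 CPM in mutant chondrocytes and at 1.04 and 1.36 CPM in controls, from 21 to 30 UMIs per library. The mutants were the lower group, with a log2 fold change of -0.72 (SE 0.303). H2-Eb1 was at 0.54 and 1.18 CPM against 0.57 and 0.72 CPM, and the groups overlapped.

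Cd74, the invariant chain on chromosome 18 from 60936899 to 60945731 of GRCm39, was at 0.51 and 0.70 CPM in mutant chondrocytes and at 0.38 and 0.32 CPM in controls, 37 UMIs against 15. The groups did not overlap, at a log2 fold change of 0.85 (SE 0.409), but the levels stayed below 1 CPM. Ciita, the coactivator on chromosome 16 from 10297923 to 10347694, which overlaps Dexi on the opposite strand by 29935 bases, had 3 to 6 counts per library and 0.10 to 0.28 CPM. Neither gene thus came near the level of H2-Ab1 in any of the 4 libraries.

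Hypertrophic chondrocytes of mutants showed the split most sharply. Their 2804 UMIs of H2-Ab1 went with 0 UMIs of H2-Aa, 5 of H2-Eb1, 3 of Cd74 and 0 of Ciita, and a count of 0 allows up to 0.73 and 0.76 CPM in these libraries. Superficial cells of the 4 libraries had 393 UMIs of H2-Ab1, none of H2-Aa, 1 each of H2-Eb1 and Cd74 and 2 of Ciita. Among growth plate cells H2-Aa was at 2.10 and 2.19 CPM in mutants and at 1.23 and 2.68 CPM in controls, and Cd74 at 1.75 and 1.18 CPM against 0.37 and 0.58 CPM.

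**Figure D3:**
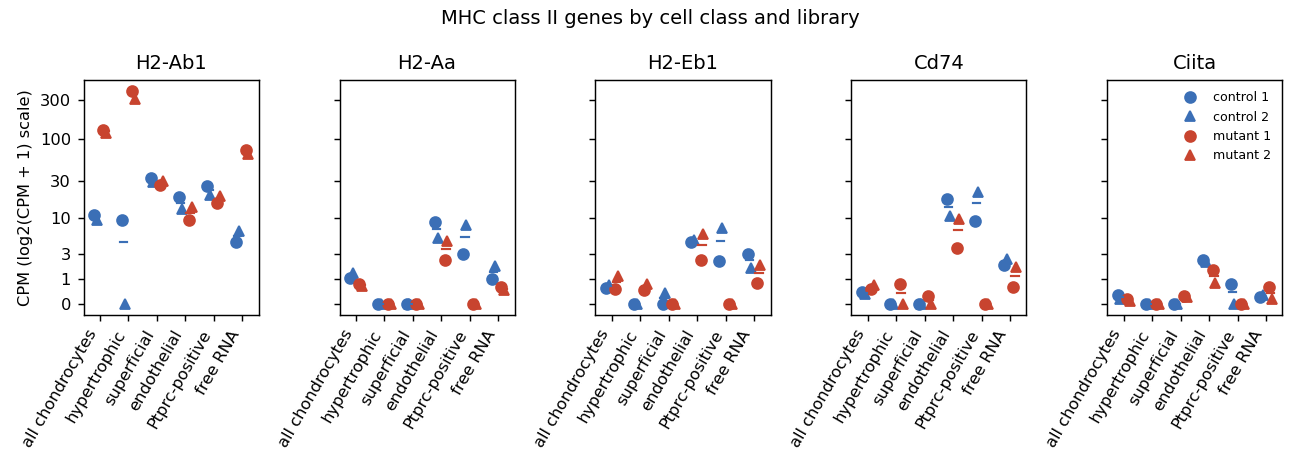
The 5 MHC class II genes (1 panel each) in CPM on a log2(CPM + 1) scale (vertical axis) in chondrocytes, 2 of their zones, endothelial cells, Ptprc-positive cells and free RNA (horizontal axis), with 1 symbol per library and a bar at the mean of 2. H2-Ab1 reaches 386 CPM in mutant hypertrophic cells, where the other members are at or below 0.76 CPM, while endothelial cells carry all 5 genes.

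Detection of the members within the same cell was read in endothelial cells and in chondrocytes. Of 193 endothelial cells with an H2-Ab1 UMI, 28.0% had one of H2-Aa, 23.8% of Cd74 and 20.7% of H2-Eb1, against 1.56%, 1.79% and 1.37% of the 2627 endothelial cells without. The cells with H2-Ab1 were deeper, at a median of 9399 UMIs against 5693, and by library the share with H2-Aa ran from 17.2% to 41.0%. Among chondrocytes the shares depend on how many cells had H2-Ab1, which itself differed between the genotypes. In mutants 0.75% and 0.60% of the 797 and 837 chondrocytes with an H2-Ab1 UMI had one of H2-Aa, that is 6 and 5 cells, beside 0.43% and 0.63% of those without. In controls 7.32% and 6.98% of the 123 and 129 with an H2-Ab1 UMI had one, 9 cells in each library, beside 0.29% and 0.85% of those without. Controls with H2-Ab1 were deeper, at a median of 19066 and 17108 UMIs against 13188 and 13502 without, and the part of depth was not tested. Over the 4 libraries, Cd74 was in 0.48% of the 1886 chondrocytes with an H2-Ab1 UMI and in 0.45% of the 5785 without, and H2-Eb1 in 1.48% and 0.78%. In cells with an H2-Ab1 UMI, 321 UMIs of H2-Ab1 stood beside 80 of H2-Aa in endothelial cells. In such chondrocytes 3845 and 3722 stood beside 8 and 9 in mutants, and 233 and 211 beside 17 and 18 in controls. Cells are not replicates, and these shares are given without a test.

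Endothelial cells, in which the transgene is active, had UMIs of each member at a low level. H2-Ab1 was at 9.43 and 14.2 CPM in mutants and at 18.7 and 13.02 CPM in controls, which overlapped. Free RNA, estimated from markers of other cell types, would supply 8.52 and 3.59 CPM of it in mutants and 0.30 and 0.34 CPM in controls. These rest on the median of 3 lists that differed widely, from 2.01% to 78.6% and from 2.99% to 68.4% of free RNA in the mutants and from 2.34% to 26.9% and from 4.22% to 30.4% in the controls, so the part of free RNA in this class is poorly known. Cd74 was at 3.81 and 9.86 CPM against 17.7 and 10.8 CPM and H2-Aa at 2.41 and 4.77 CPM against 9.01 and 5.38 CPM, so that the mutants were lower without overlap. Of all genes that pass the filter in endothelial cells, 69.1% had groups without overlap. Ciita was at 1.60 and 0.80 CPM against 2.38 and 2.26 CPM, and H2-Eb1 at 2.41 and 6.04 CPM against 4.59 and 5.03 CPM. In the same cells the summed level of 18 macrophage and dendritic cell markers was 60.3 and 64.2 CPM in mutants and 158 and 167 CPM in controls, with 9 and 7 of them at 0. That of 8 neutrophil markers was 1.40 and 1.67 CPM in mutants and 9.69 and 8.16 CPM in controls. The part of these lists in the difference was not tested.

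Stromal cells and osteoblasts had little of any member. H2-Ab1 was at 5.90 and 4.39 CPM in reticular stromal cells of mutants and at 2.78 CPM in both controls, a log2 fold change of 0.91 (SE 0.302), where 61.8% of genes had groups without overlap. Among reticular cells with no UMI of 11 further leukocyte genes it was 1.51. H2-Eb1 was at 7.08 and 5.61 CPM against 5.57 and 7.98 CPM in these cells, with overlapping groups. In metaphyseal stromal cells H2-Ab1 had 1 UMI in mutants and 10 in controls, and in osteoblasts 4 and 3, beside 48.8% of genes without overlap in osteoblasts. Mural cells had 3.22 and 4.27 CPM of H2-Ab1 in mutants and 1.25 and 0.61 CPM in controls. In these cells the macrophage and dendritic list was at 147 and 121 CPM in mutants against 20.1 and 24.7 CPM in controls (11 to 13 of 18 genes at 0) and the osteoclast list at 144 and 184 CPM against 37.6 and 29.2 CPM (2 to 4 of 5 at 0), and their part was not tested.

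Free RNA was read from barcodes under 100 UMIs, of which each library held at least 5068878 UMIs. H2-Ab1 was at 72.2 and 65.2 CPM in the free RNA of mutants and at 4.73 and 6.71 CPM in that of controls, so the free RNA differed as the chondrocytes did. The other members were at 0.16 to 3.02 CPM in the free RNA of the 4 libraries. In chondrocytes H2-Ab1 exceeded its own free RNA 1.79 and 1.81 times in mutants and 2.33 and 1.42 times in controls. Markers of endothelial, reticular and neutrophil cells put the share of free RNA in chondrocytes at a median of 4.60% to 7.20%, which would supply 3.81 and 3.0 of the 130 and 118 CPM of H2-Ab1 in mutants and 2.16 to 3.96 CPM in their hypertrophic zone.

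The same estimate reached the readings of other classes. In reticular stromal cells of mutants it gave 6.88 and 4.38 CPM of H2-Ab1 beside the 5.90 and 4.39 CPM measured, and 0.49 and 0.38 CPM beside 2.78 CPM in controls. With free RNA subtracted, the log2 fold change of reticular stromal cells went from 0.91 to -7.14, as almost no count of mutants was left, while that of all chondrocytes was 3.61. In mural cells of mutants it gave 7.34 and 4.68 CPM, above the measured values, and in resting and columnar cells 2.58 and 2.52 CPM of the 8.15 and 10.2 CPM. In superficial cells it gave 3.67 and 3.38 CPM of H2-Ab1 in mutants and 0.14 and 0.20 CPM in controls. With free RNA subtracted, the log2 fold change of superficial cells was -0.22 (SE 0.17). The estimate is coarse. Its 3 lists ran from 3.97% to 84.2% and from 3.48% to 19.3% in the reticular stromal cells of mutants, from 2.08% to 39.1% and from 2.19% to 16.2% in their mural cells, and from 8.70% to 46.6% and from 2.65% to 42.6% in their osteoblasts. In osteoblasts of mutants it gave 18.5 and 6.91 CPM where 0.61 and 1.38 CPM were measured.

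Over all chondrocytes, macrophage, dendritic and B cell markers overlapped between the genotypes. The summed level of the 18 macrophage and dendritic cell markers in chondrocytes was 9.73 and 10.7 CPM in mutants and 11.3 and 10.7 CPM in controls, with 5 to 8 of them at 0, and that of 9 B cell markers 2.44 and 3.30 CPM against 3.0 and 2.39 CPM, with 2 to 4 at 0. A list of 8 neutrophil markers was lower in mutants, at 1.23 and 1.33 CPM against 3.35 and 3.08 CPM, and 5 osteoclast markers were at 56.4 and 61.4 CPM against 62.9 and 66.5 CPM, and the part of these lists in the difference was not tested. In some zones the macrophage and dendritic list did not overlap. It was lower in mutants in growth plate cells (7.10 and 6.08 CPM against 14.9 and 15.8 CPM, with 9 to 12 genes at 0), and higher in superficial cells (9.32 and 11.5 CPM against 6.20 and 8.69 CPM) and in prehypertrophic cells (8.70 and 6.83 CPM against 6.58 and 3.98 CPM). C1qa was at 0 in these zones. In cycling cells the list was lower in mutants, at 7.05 and 5.09 CPM against 8.56 and 16.4 CPM. In hypertrophic cells it was higher, at 12.96 and 11.2 CPM against 9.46 and 0 CPM in the few control cells. The B cell sum of the hypertrophic zone was 1.83 and 2.27 CPM against 9.46 and 0 CPM. The 305 cells with a Ptprc UMI had 15.7 and 19.5 CPM of H2-Ab1 in mutants and 25.9 and 19.8 CPM in controls, less than the chondrocytes of mutants. Those of mutants had no UMI of the other members, so their level is not a reading of antigen-presenting cells. Those of controls had 15 of H2-Aa, 13 of H2-Eb1, 42 of Cd74 and 1 of Ciita. Col2a1 was at a mean of 1048 CPM in mutants and 797 CPM in controls, and 32.1% of these cells lay within 0.05 of a threshold. Without any UMI of 11 further leukocyte genes, the log2 fold change of H2-Ab1 was 3.66 in all chondrocytes and -0.31 (SE 0.163) in superficial cells.

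The genes whose levels over 67 combinations of class and library were most like the mean of H2-Ab1, H2-Aa, H2-Eb1 and Cd74 were H2-K2 (Pearson r = 0.758), Kcng2 (0.736), Lck (0.734), Sema6b (0.713) and Jak3 (0.699). The points share libraries and depth, and r is a description. That mean joins unlike patterns, since across the same points H2-Ab1 had r = 0.165 with H2-Aa, 0.123 with Cd74 and 0.049 with Ciita, whereas Cd74 had 0.791 with H2-Aa and 0.565 with H2-Eb1.

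Likeness to H2-Ab1 alone, chosen after its values were seen, named Bnip3l, a mitophagy receptor (0.784), Adm2, a peptide hormone (0.783), Ero1a, an oxidase of the endoplasmic reticulum (0.758), Pgk1, a glycolytic enzyme (0.740), and Jmjd6 (0.734). Ero1a was at 84.4 and 80.5 CPM in mutant chondrocytes and at 25.3 and 23.1 CPM in controls, and Pgk1 at 550 and 520 CPM against 191 and 193 CPM. In superficial cells, where H2-Ab1 overlapped between the genotypes, Ero1a was at 51.2 and 53.1 CPM against 53.3 and 45.1 CPM and Jmjd6 overlapped too. Bnip3l was higher there, at 149 and 143 CPM against 117 and 107 CPM (adjusted p = 0.00973), and Pgk1 was at 352 and 341 CPM against 323 and 271 CPM, without overlap (adjusted p = 0.119). Irf8, a transcription factor of myeloid and B cells, was among the 5 genes most like H2-Aa, H2-Eb1 and Cd74 taken without H2-Ab1 (0.776).

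The remaining antigen presentation genes asked whether the pathway around the members moved with H2-Ab1. Of 65 genes in 5 lists, 55 could be tested in all chondrocytes, where 16 were higher and 9 lower in mutants (edgeR quasi-likelihood test, adjusted p at most 0.05). Of all genes tested there, 23.1% were higher and 22.7% lower, so the 25 of 55 called stood near the background of 45.8%. These changes include the mix of zones, which differed between genotypes (912 mutant and 23 control hypertrophic cells, 685 and 1112 growth plate cells). The median log2 fold change was 0.10 over the lists and 0.00 over all genes.

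Of 9 class II processing genes tested in chondrocytes, 4 were higher and 1 lower. Ctsl, a lysosomal protease that trims the invariant chain, rose from 81.2 and 81.6 CPM in controls to 143 and 142 CPM in mutants, a log2 fold change of 0.86 (SE 0.045, adjusted p = 1.62e-09). Ifi30, the lysosomal thiol reductase, rose by a log2 fold change of 0.29 (SE 0.059, adjusted p = 0.00131) and H2-DMa, a chain of the peptide-loading chaperone, by 0.23 (SE 0.076, adjusted p = 0.025). H2-DMb1, its partner chain, did not pass, at 46.9 and 44.9 CPM against 46.0 and 45.5 CPM.

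Of 11 class II regulators, 4 were higher and 1 lower. Rfxap and Rfxank, subunits of the RFX complex that binds the X box, rose by log2 fold changes of 0.37 (SE 0.063, adjusted p = 2.45e-04) and 0.40 (SE 0.106, adjusted p = 0.00706), while Rfx5, the remaining subunit, was at 4.28 and 4.03 CPM against 5.34 and 5.62 CPM and did not pass (adjusted p = 0.0673). Nfyc, a subunit of the complex that binds the Y box, fell by 0.56 on the log2 scale (SE 0.058, adjusted p = 2.46e-06). Irf8 rose by a log2 fold change of 1.35 (SE 0.371, adjusted p = 0.0113) but stayed at 1.72 and 2.03 CPM against 1.19 and 0.36 CPM.

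Of 18 class I genes, 6 were higher and 2 lower. The heavy chains H2-K1 and H2-D1 did not pass, at 127 and 123 CPM against 124 and 117 CPM and at 129 and 139 CPM against 129 and 137 CPM. B2m, the light chain, rose by a log2 fold change of 0.29 (SE 0.047, adjusted p = 1.89e-04), and H2-T23, a nonclassical class I gene, by 1.02 (SE 0.130, adjusted p = 1.76e-05), from 5.19 and 4.59 CPM to 8.84 and 10.3 CPM. Class I genes have near-identical copies, so such values may hold shared reads.

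Of 17 interferon gamma genes, 2 were higher and 4 lower. Cxcl9, a chemokine induced by interferon gamma, fell from 1.04 and 0.82 CPM to 0.10 and 0.06 CPM, a log2 fold change of -3.37 (SE 0.491, adjusted p = 6.41e-05). The GTPases Iigp1 and Igtp fell by 1.02 (SE 0.258, adjusted p = 0.00519) and by 0.97 (SE 0.248, adjusted p = 0.00562) on the log2 scale. Gbp2, another GTPase, rose by a log2 fold change of 1.23 (SE 0.297, adjusted p = 0.00364), from 0.71 and 0.72 CPM to 1.35 and 1.92 CPM. Of 2 costimulation genes tested, Cd274, which encodes PD-L1, fell from 2.65 and 1.09 CPM to 0.32 and 0.57 CPM (adjusted p = 0.00575).

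**Figure D4:**
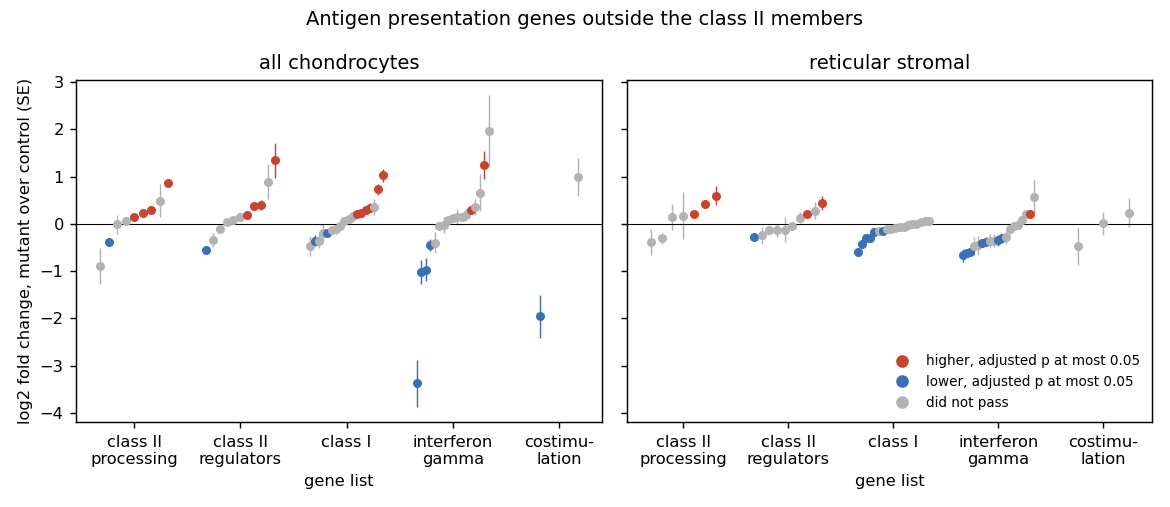
Log2 fold changes of mutants over controls (vertical axis, bars are SE) for the genes of 5 antigen presentation lists (horizontal axis) in all chondrocytes (left) and reticular stromal cells (right). Red and blue points passed an adjusted p of 0.05 as higher and lower, and grey points did not. Chondrocytes show 16 red and 9 blue genes and reticular stromal cells 5 and 13, where a gene in 2 lists is drawn in both.

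Within zones, the genes called were fewer. In growth plate cells 11 of 47 genes were higher and 7 lower, where 16.1% and 13.1% of all genes were. H2-DMa was at 45.2 and 42.6 CPM against 23.8 and 21.1 CPM there (log2 fold change 1.09, SE 0.109, adjusted p = 2.56e-07), Ctsl at 105 and 108 CPM against 56.0 and 65.6 CPM, and Cxcl10, a chemokine, at 4.21 and 2.7 CPM against 0.86 and 1.05 CPM (adjusted p = 0.0018). Cd274, Igtp and Psmb9, a subunit of the immunoproteasome, fell to 0.53 and 0.17, 0.79 and 1.27, and 0.88 and 1.18 CPM from 2.96 and 2.10, 2.41 and 5.36, and 2.47 and 2.80 CPM (adjusted p = 0.00223, 0.0113 and 0.0463). Beside these falls, the macrophage and dendritic list was lower in mutants as given above and the neutrophil list was at 1.23 and 0.51 CPM against 4.81 and 3.73 CPM, and their part was not tested. Among cells with no UMI of 11 further leukocyte genes, 10 genes were higher and 4 lower. Without control 1 there were 6 higher and 6 lower, without control 2 there were 10 and 2, and with no filter on low counts 10 and 11.

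In prehypertrophic cells 4 of 41 genes were higher and 1 lower, beside 10.7% and 8.91% of all genes and 19.6% in either direction. They were H2-T23 (7.64 and 7.72 against 3.86 and 3.98 CPM), Ctsl, Ifi30 and B2m, and Marchf8, a ubiquitin ligase, at 17.8 and 19.8 against 27.7 and 27.0 CPM (adjusted p = 0.0271). In hypertrophic cells 5 of 39 genes were higher and none lower, beside 7.46% and 4.99%, and the median log2 fold change of all genes was 0.25 in this thin comparison. Without either mutant library no pathway gene was called, but only 13 of them could then be tested. Lgmn, a lysosomal protease, was at 211 and 203 CPM against 85.1 and 81.8 CPM there (log2 fold change 1.49, SE 0.291, adjusted p = 0.00264). Socs1, an inhibitor of cytokine signalling, and H2-T23 had no count in the controls and were at least 2.17-fold and 1.71-fold higher in mutants.

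In superficial cells, 4 of 36 genes were higher and none lower, beside 2.5% and 1.59% of all genes and 4.09% in either direction. H2-DMb1 was at 11.7 and 10.4 CPM against 5.97 and 4.62 CPM (adjusted p = 0.0415), Psme1, a proteasome activator subunit, at 35.3 and 31.6 against 22.97 and 21.3 CPM (adjusted p = 0.0383) and Ifi30 at 52.4 and 56.3 against 38.6 and 38.8 CPM (adjusted p = 0.0204), and no gene was called without mutant 1 or without mutant 2. Without control 2, none was higher and 1 was lower. In cycling cells Socs1 alone of 27 passed, at 43.3 and 59.5 against 17.1 and 15.8 CPM (adjusted p = 0.00596), beside 3.44% of all genes higher, 1.52% lower and 4.96% in either direction. In resting and columnar cells none of 31 passed with edgeR, 4 had an unadjusted p under 0.05 and DESeq2 called 0, beside 1.66% of all genes higher, 0.914% lower and 2.57% in either direction.

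In reticular stromal cells 5 of 55 genes were higher and 13 lower, beside 11.6% and 10.3% of all genes. Markers of other cell types moved with them, and their part was not tested. The macrophage and dendritic list was at 76.5 and 74.0 CPM in mutants against 45.4 and 56.4 CPM (5 to 10 of 18 genes at 0), the neutrophil list at 10.03 and 5.85 CPM against 16.1 and 11.03 CPM (1 to 4 of 8 at 0), and the osteoclast list at 158 and 138 CPM against 105 and 119 CPM (2 to 3 of 5 at 0). Lower were 7 of 19 interferon gamma genes and 6 of 18 class I genes, with Nlrc5, the coactivator of class I genes, in both lists. Gbp5 was at 13.3 and 16.1 against 24.9 and 23.5 CPM (log2 fold change -0.67, SE 0.140, adjusted p = 0.00214), Jak2 at 86.7 and 75.1 against 127 and 126 CPM (adjusted p = 1.21e-05) and Nlrc5 at 52.6 and 53.4 against 85.2 and 79.7 CPM (adjusted p = 3.16e-05). Ifi30 was at 12.7 and 11.2 against 8.61 and 7.53 CPM (adjusted p = 0.0351), Rfxap at 17.7 and 16.6 against 12.1 and 13.7 CPM (adjusted p = 0.0464) and Lgmn at 93.2 and 91.2 against 67.1 and 74.6 CPM (adjusted p = 6.66e-04).

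In metaphyseal stromal cells 0 of 47 genes were higher and 3 lower, beside 1% and 0.682% of all genes and 1.68% in either direction. Nlrc5 was at 36.9 and 39.3 against 80.4 and 70.2 CPM (adjusted p = 0.0454), H2-K1 at 1120 and 960 against 1709 and 1862 CPM (adjusted p = 0.0161) and B2m at 1299 and 1188 against 2003 and 2021 CPM (adjusted p = 0.0209). These calls were lost without either control library. The osteoclast list was at 181 and 271 CPM in mutants against 142 and 149 CPM in controls (2 to 3 of 5 genes at 0), without overlap, and its part was not tested. In osteoblasts 2 of 46 were higher and 4 lower, beside 3.19% and 1.06% of all genes and 4.25% in either direction. With free RNA subtracted, none of 44 was called and 12 had an unadjusted p under 0.05, in a fit that called 99 of 11701 genes against 536 of 12601 before. The osteoclast list was at 114 and 155 CPM in mutants against 159 and 168 CPM in controls (1 to 2 of 5 genes at 0), without overlap, and its part was not tested. Irf1, an interferon-induced transcription factor, was at 29.2 and 32.1 against 13.5 and 12.9 CPM (adjusted p = 2.37e-04) and Jak1 at 122 and 130 against 94.8 and 97.8 CPM, while Cxcl9 had 0 against 7.90 and 12.4 CPM and was at least 13.1-fold lower, Igtp 0 and 1.15 against 3.32 and 4.03 CPM, and H2-K1 209 and 227 against 301 and 302 CPM.

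The neighbours of H2-Ab1 on chromosome 17 gave no like change. Of 22 other protein-coding genes within 250 kb that are no members, 12 could be tested in chondrocytes, and 3 were higher and 2 lower, beside the 23.1% and 22.7% of all genes. H2-Ob, the nearest at 3.3 kb, had at most 0.05 CPM in each library. Tap2, a subunit of the peptide transporter at 40.8 kb, was at 12.4 and 13.2 against 9.97 and 10.96 CPM (adjusted p = 0.00893), and Psmb8 and Tap1, at 56.2 and 60.5 kb, did not pass. The largest change in the window was that of Col11a2, a cartilage collagen, which fell to 1077 and 1059 CPM from 2489 and 2392 CPM. These neighbours were chosen after the values of H2-Ab1 were seen.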

How the data were processed

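Droplet-based 10x 3′ single-cell RNA sequencing was carried out on 4 libraries. Per the labels and the study's methods, the authors trimmed reads with cutadapt 3.5, aligned them with STARsolo 2.7.10a to mm39 and counted UMIs over exons and introns. The deposited values are expected counts per gene and barcode, unfiltered and not normalized, in which an expectation maximization step divided multi-gene reads.

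Barcodes with 1000 UMIs and 800 features or more entered, provided that mitochondrial UMIs made up no more than 15%, hemoglobin UMIs no more than 5%, and complexity was 0.8 or higher. The files hold no cell annotation here. Each marker was set as log CP10K over its 90th percentile, capped at 1 and averaged over its list. A cell joined the class with the best score if that was at least 0.3 and exceeded the next by 0.1, and zones were set alike. The chondrocyte score was the highest of the pan-chondrocyte, hypertrophic and deep articular lists, and erythroid cells needed a UMI of an erythroid gene other than the globins. No doublet caller was run, and how many doublets the margin removed was not measured. Cells with a Ptprc UMI were set apart. The scoring rule and the estimate of free RNA (the median over 3 marker lists of other cell types) were set after seeing the data.

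The members and gene lists were chosen with earlier results of these data known. Expected counts were summed per class and library, rounded and compared in edgeR 4.0.16 (quasi-likelihood test, TMM, filterByExpr, R 4.3.3) with Benjamini-Hochberg adjustment over all genes of the class, in classes of at least 10 cells in every library. SE is the log2 fold change over the root of F. The test was tried only on counts simulated from the sums of all chondrocytes, with means and dispersions taken from these libraries. Zones with few cells were not simulated. CPM is scaled to the UMI total of the class, and intervals and floors (3 counts) cover counting error only. Named were the 5 members, up to 3 pathway genes per class and direction with the largest change among those called and alike in both numbered pairs, and the 5 genes most like the members. Other pathway genes were named for their role after their values were seen. Alternatives were DESeq2 1.42.0, its size factors, other filters, gates and cells, a replicate block and leaving out each library.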

Additional observations from a re-analysis of the deposited data

Results flagged for a closer look

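Tap2, a subunit of the peptide transporter of class I loading, was higher in chondrocytes of mutants (log2 fold change 0.34) and lower in their reticular stromal cells (log2 fold change -0.30). In both classes the libraries of the genotypes did not overlap, as for 75.1% of all genes in chondrocytes and 61.8% in reticular stromal cells. The difference between the classes was not tested.

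Cells outside every gate (2207 of mutants and 1681 of controls) entered no comparison. They had 28.6 CPM of H2-Ab1 in mutants and 5.66 CPM in controls, as means of 2 libraries each.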

How the results depend on the processing

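The log2 fold change of H2-Ab1 in all chondrocytes lay between 3.54 and 3.83 under 14 alternatives, above 0 in each, with 3.83 under a stricter gate margin and 3.54 to 3.73 when 1 library was left out. Its level in chondrocytes over free RNA in mutants was 1.78 with barcodes of 10 to 99 UMIs. With DESeq2 the antigen presentation genes called numbered 12 in all chondrocytes (edgeR 25), 7 in growth plate (18), 1 in prehypertrophic (5), 3 in hypertrophic (5), 8 in reticular stromal (18), 0 in superficial (4, with 7 genes tested against 36) and 0 in cycling cells (1). Which genes both tools called was not compared. Genes detected in 20% of cells gave 16 in all chondrocytes and 3 in hypertrophic cells. Without a filter on low counts there were 13 in prehypertrophic, 11 in osteoblasts, 1 in resting and columnar and 0 in hypertrophic cells, where this fit called 0 of all 23878 genes with edgeR (2591 at an unadjusted p under 0.05). A stricter margin between classes, with the margin between zones unchanged, left 0 in superficial and in metaphyseal stromal cells, and too few hypertrophic cells to run. Excluding cells with further leukocyte genes left 2 in superficial cells. With free RNA subtracted, 2 were called in superficial cells and 0 in osteoblasts, where the main count was 6. Leaving out 1 library at a time gave 0 to 4 genes in superficial, 0 to 1 in resting and columnar, 12 to 18 in growth plate, 3 to 5 in prehypertrophic, 0 to 7 in hypertrophic, 1 to 3 in cycling, 0 to 7 in metaphyseal stromal cells and 4 to 10 in osteoblasts. The causes were not tested.

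Same-numbered libraries did not deviate together (correlations of -0.034 to 0.07 over the classes). With 2 libraries per group, where counting noise adds to each deviation, this cannot tell whether the numbers pair the samples. With a replicate block, 9 genes were called in prehypertrophic and 2 in hypertrophic cells. The free RNA setting for these genes, the Col10a1 bins, the hypertrophic score without 3 of its genes and the other references for likeness were chosen after seeing the data.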
